A study of Mus musculus with 6 samples.

Results

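The enzymes that write and erase marks on histones were followed in splenic B cells that were cultured with or without CpG DNA. Genes were taken by the prefix of their symbol: Kdm (lysine demethylases), Kat (lysine acetyltransferases), Hdac (histone deacetylases), Sirt (sirtuins), Prmt (protein arginine methyltransferases), Ezh (methyltransferases of the Polycomb complex PRC2) or Tet (DNA dioxygenases) followed by a digit, and all symbols that begin with Setd (proteins with a SET domain). The gene Kdm5d was left out. In all, 65 symbols fell under these prefixes, and 62 had a value over -0.76, the level of 10 reads, in at least 3 samples. These 62 are part of 11233 genes that passed the same filter, of 23420 in the files. They comprise 15 Kdm, 7 Kat, 11 Hdac, 7 Sirt, 7 Prmt, 2 Ezh, 2 Tet and 11 Setd genes. Kdm4d, Prmt8 and Tet1 did not pass.

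The cells were B cells of WT BALB/c mice aged 7 to 11 weeks, purified from spleen with beads. Cultures of 10 M cells at 10 M per mL were kept for 4 hours with 10 μg/mL of CpG ODN 1826, a synthetic DNA that activates TLR9, or were left unstimulated. By their labels, both groups were WT and differed only in the stimulus. There were 3 samples in each group, numbered 1 to 3, of which 1 and 2 are labelled female and 3 male. The labels name 3 mice and do not say whether a number stands for 1 mouse, so the p values may measure technical spread in part. Values are given below in the order 1, 2, 3, as log2 CPM (counts scaled to the size of the library), and log2FC is CpG-stimulated minus unstimulated.

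Histones are marked on lysine and arginine residues of their tails. Acetyltransferases add acetyl groups, which go with open and transcribed chromatin, and HDACs and sirtuins take them off; sirtuins consume NAD+ to do so. Methyltransferases of the SET, EZH and PRMT families add methyl groups whose meaning depends on the residue: H3K4 methylation marks promoters and enhancers, H3K36 methylation marks transcribed gene bodies, and H3K27 and H3K9 methylation mark silent chromatin. KDM enzymes remove these methyl groups from lysine. TET enzymes oxidize methylated cytosine in DNA and do not act on histones. Many of these enzymes also have substrates other than histones, and Sirt3, Sirt4 and Sirt5 are mitochondrial. A naive B cell has condensed, sparsely transcribed chromatin, which opens as the cell leaves rest.

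The deposited values correspond to libraries scaled to 17.8 M reads each, and quantile normalization gave all 6 samples nearly the same distribution, so that a change in total RNA per cell cannot be seen. The summed level of 10 B cell markers was 11.7 to 11.9 with CpG and 12.1 to 12.3 without, and single markers went both ways. All 10 B cell markers were above the level of 10 reads, with a median of 8.43 log2 CPM. None of 6 T cell and 4 NK cell markers had a mean over all 6 samples above it. Klrb1c, an NK cell marker, reached 0.23 in CpG-stimulated samples 2 and 3. The summed level of the NK cell markers was -0.40 to 0.44 with CpG and -3.07 to -2.64 without, set by Klrb1c, and that of the T cell markers was -1.30 to -0.66 over all samples. Of 7 myeloid markers 4 did, with sums of 3.34 to 3.98 with CpG and 2.91 to 3.89 without. Of 4 pDC markers 3 did; their summed level was 10.8 to 10.9 with CpG and 9.13 to 9.28 without, and was set by Irf8, a gene that B cells also express; the part of these markers in the results was not tested. All 4 erythroid markers were above it, and their summed level in both samples numbered 2 (12.3 and 11.9) exceeded that of the other samples (8.58 to 9.26). In the samples numbered 2, labelled female, Xist was at 6.33 and 6.28, between the female samples numbered 1 (11.8 and 11.6) and the male samples (0.85 and 1.34), and the Y-linked gene Ddx3y was at 2.27 and 2.15. Without both samples numbered 2, 17 members were higher and 26 lower, against 16 and 26 with all samples. In bulk RNA, fewer cells of a type and less RNA per cell cannot be told apart.

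With CpG, the families moved in different directions. Most arginine methyltransferases rose, and most deacetylases, sirtuins, lysine acetyltransferases and lysine demethylases that passed the test fell. Of the 62 members, 16 (25.8%) were higher and 26 (41.9%) were lower (limma, FDR under 0.05 and log2FC beyond 0.5 either way). The study set this threshold for DEGs in MRL/lpr mice, both between stimulated and unstimulated samples and between genotypes. For these BALB/c samples it used a log2FC over 1. Of all 11233 genes 28.6% were higher and 27.6% were lower. The share of members that rose thus lay near the background, and the share that fell lay above it. The median log2FC of the members was -0.33, and that of all genes tested was 0.0033. With log2FC beyond 1, 7 members were higher and 15 lower, with a background of 15.8% and 15.3%. Both counts of lower members include Hdac11, which passed the filter only through its unstimulated samples. Its log2FC was -0.81 on the log2(CPM + 1) scale. Values of the 2 groups did not overlap in 52 of the 62 members; this was so for 77.7% of all genes.

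The counts by family stand against shares of 28.6% higher and 27.6% lower among all 11233 genes. Among the Prmt genes, 5 of 7 were higher and 2 lower, with a median log2FC of 0.95. Among the Setd genes 4 of 11 were higher and 2 lower (median 0.16), and among the Kdm genes 3 of 15 were higher and 7 lower (median -0.45). Of the Kat genes 1 of 7 was higher and 4 were lower (median -0.56), and of the Hdac genes 1 of 11 was higher and 6 were lower (median -0.55, and -0.31 without Hdac11, which was near the filter). No Sirt gene was higher and 4 of 7 were lower (median -0.71). Ezh2 was higher while Ezh1 was not called, and Tet2 was higher while Tet3 was lower. Put together, the 27 members of the writer families (Kat, Prmt, Ezh and Setd) held 11 higher and 8 lower genes, with a median log2FC of 0.16. Of these 11 higher genes 5 were Prmt genes, whereas 4 of 7 Kat genes fell. The share of writers that fell (29.6%) lay near that of all genes. The 33 members of the eraser families (Kdm, Hdac and Sirt) held 4 higher and 17 lower genes, with a median of -0.55. Differences between families were not tested, as genes of a family are not replicates.

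**Figure D1:**
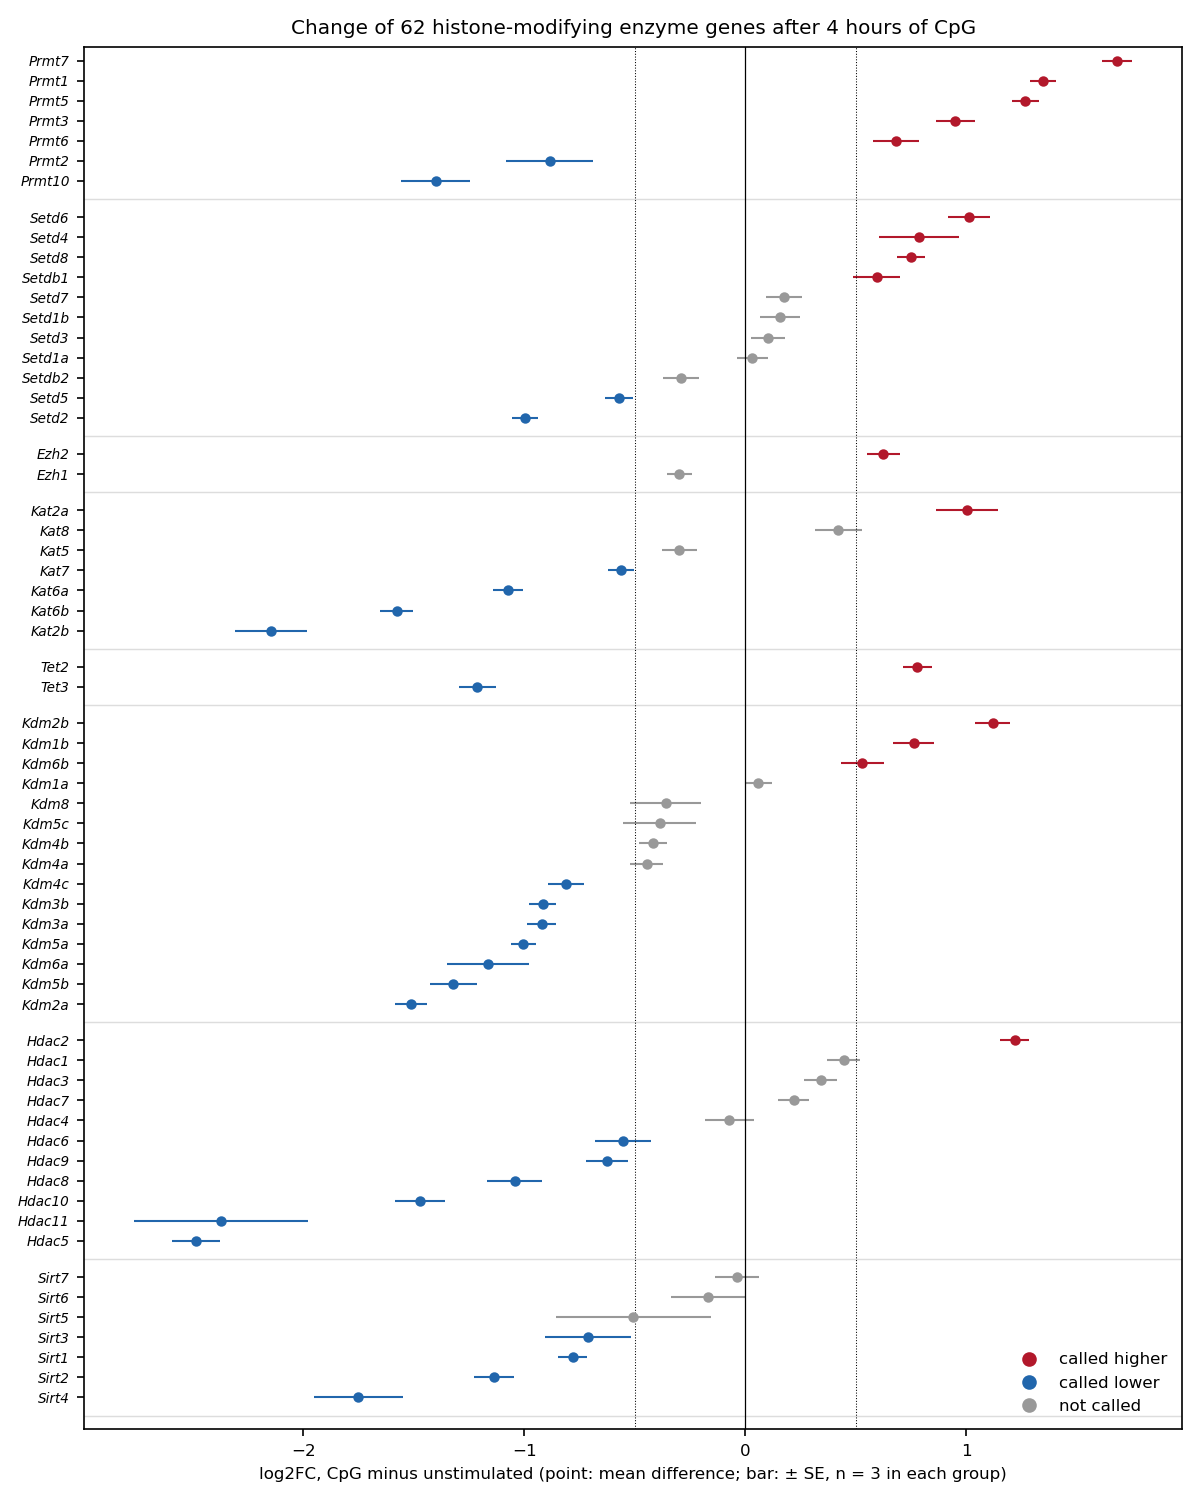
Log2FC of each of the 62 members (CpG-stimulated minus unstimulated; points are differences of means of 3 samples each, bars are SE), grouped by family and ordered within it; red and blue points were called higher and lower, and dotted lines mark 0.5 either way. Prmt7 (1.68) lies farthest to the right and Hdac5 (-2.49) farthest to the left; the value of Hdac11 depends on the scale, as its CpG-stimulated samples lie below the filter.

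**Figure D2:**
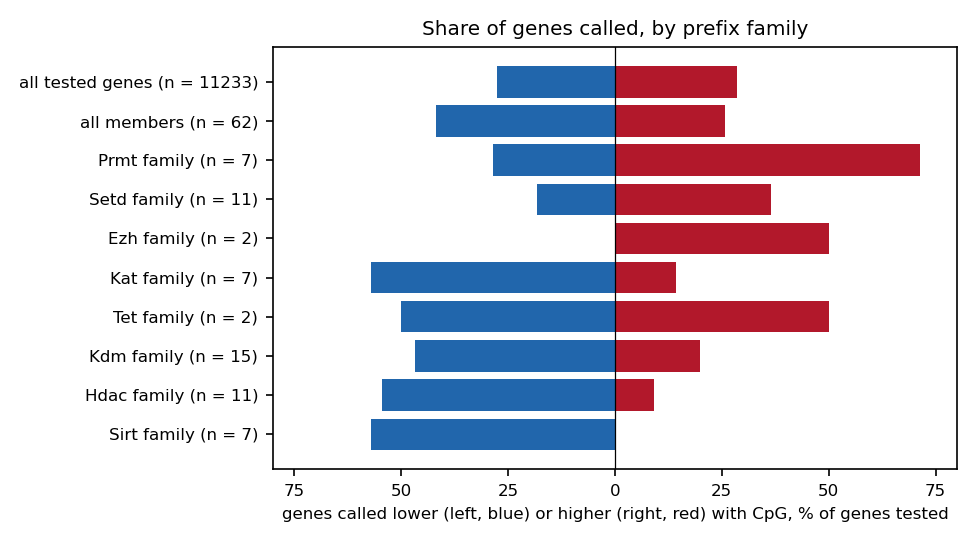
Share of genes called higher (right) and lower (left) with CpG among all 11233 genes, the 62 members and each prefix family, in percent of genes tested. The Prmt family reaches 71.4% on the higher side, and the Kat and Sirt families reach 57.1% on the lower side.

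Arginine methyltransferases held the members that rose most. Prmt7, the type III enzyme that makes only monomethylarginine, was at 7.23, 7.03 and 7.16 with CpG and 5.45, 5.44 and 5.48 without. The groups lay far apart, and its log2FC was the highest of all members (log2FC 1.68 ± 0.069 SE, limma FDR = 3.50e-08). Prmt1, the type I enzyme that makes most asymmetric dimethylarginine in cells and deposits it on H4R3, was at 8.87, 8.75 and 8.78 with CpG and 7.47, 7.44 and 7.45 without, so that samples of a group differed far less than the groups did (log2FC 1.35 ± 0.058 SE, limma FDR = 4.23e-08). Prmt5, the main type II enzyme, which makes symmetric dimethylarginine on histones and on splicing proteins, was at 7.58, 7.50 and 7.53 with CpG and 6.31, 6.30 and 6.19 without, again with no overlap (log2FC 1.27 ± 0.062 SE, limma FDR = 7.28e-08). Prmt3, a cytosolic enzyme whose main substrate is a ribosomal protein, rose as well (log2FC 0.95 ± 0.089 SE, limma FDR = 4.89e-06), as did Prmt6, which methylates H3R2 (log2FC 0.68 ± 0.10 SE, limma FDR = 1.52e-04). Prmt10 and Prmt2 fell. Prmt10, now named Prmt9, a second type II enzyme, was at 2.34, 2.43 and 2.67 with CpG and 3.81, 3.67 and 4.17 without, all CpG-stimulated samples below all others (log2FC -1.40 ± 0.16 SE, limma FDR = 1.74e-05). Prmt2 was lower too (log2FC -0.89 ± 0.20 SE, limma FDR = 0.00235), with CpG-stimulated sample 1 (1.80) under the other CpG-stimulated samples (2.57 and 2.47). Carm1, a type I enzyme whose symbol lacks the prefix, also rose (log2FC 0.63 ± 0.076 SE, limma FDR = 3.12e-05). Prmt8 had no reads in any of the 6 samples (listed at -5.15).

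Promoters are shown for 4 of the called members whose window holds an E-box, the palindrome bound by MYC and related factors; they were picked with their log2FC known. Each is a window of 300 bases from RefSeq (GRCm38.p6), from 250 bases before to 50 after the start of the gene, written 5′ to 3′ on the strand of the gene. Capitals mark the E-box CACGTG and, in Prmt1, a kappaB motif. Prmt1 lies on the minus strand at chr7:44986371-44986670 and Prmt3 on the plus strand at chr7:49778108-49778407.
Prmt1: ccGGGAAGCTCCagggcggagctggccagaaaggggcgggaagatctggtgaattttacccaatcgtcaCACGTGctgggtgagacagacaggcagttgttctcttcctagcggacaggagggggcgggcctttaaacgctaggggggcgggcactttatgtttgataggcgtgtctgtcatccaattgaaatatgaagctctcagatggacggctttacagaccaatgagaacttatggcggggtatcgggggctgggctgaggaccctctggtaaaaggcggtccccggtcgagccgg
Prmt3: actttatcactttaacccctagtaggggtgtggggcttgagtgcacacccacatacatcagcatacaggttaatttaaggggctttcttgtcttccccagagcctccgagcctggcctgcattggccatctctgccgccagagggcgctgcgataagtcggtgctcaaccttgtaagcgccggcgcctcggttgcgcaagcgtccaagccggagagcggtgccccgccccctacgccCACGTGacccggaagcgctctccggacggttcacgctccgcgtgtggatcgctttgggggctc
The tables held windows for 52 of the 62 members, 71 in all. An E-box stood in 9.86% of the member windows and in 7.15% of all 32851 windows of the table. It was found in 2 of 20 windows of members that rose and in 4 of 28 windows of members that fell. The kappaB motif stood in 15.49% of member windows and in 8.46% of all, the AP-1 motif TGACTCA in 9.86% and 5.20%, and the CRE motif TGACGTCA in 1.41% and 1.79%. Of 20 windows of members that rose, 3 held a kappaB motif and 0 held AP-1 or CRE, and of 28 windows of members that fell, 6 held kappaB, 3 held AP-1 and 1 held CRE. Both strands were searched. Some genes have more than a single window, and these can overlap, so windows are not independent. Both Kat6b windows held the same kappaB site, and Kdm3a held AP-1 in separate windows. A match of letters is not a bound site, and these shares were not tested.

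Lysine acetyltransferases split within the GNAT pair. Kat2a (GCN5) and Kat2b (PCAF) are alternative catalytic subunits of SAGA and related complexes, which acetylate H3K9. Kat2a was at 6.63, 6.05 and 6.41 with CpG and 5.57, 5.21 and 5.31 without (log2FC 1.004 ± 0.14 SE, limma FDR = 9.86e-05), and sample 2 was the lowest of both groups. Kat2b was at 1.67, 2.17 and 1.63 with CpG and 3.96, 3.87 and 4.08 without, with all CpG-stimulated samples below all unstimulated ones (log2FC -2.15 ± 0.16 SE, limma FDR = 1.15e-06). Of the 5 MYST enzymes none was called higher and 3 were lower. Kat6b, whose complex acetylates H3K23, was at 4.19, 4.33 and 4.29 with CpG and 5.89, 5.86 and 5.80 without (log2FC -1.58 ± 0.075 SE, limma FDR = 6.71e-08), and its paralog Kat6a was at 7.09, 6.99 and 7.18 with CpG and 8.19, 8.09 and 8.20 without (log2FC -1.07 ± 0.067 SE, limma FDR = 3.09e-07). In both genes the samples of a group stayed within a narrow range and the groups did not overlap. Kat7 (HBO1), which acetylates H3K14 and licenses replication origins, fell less (log2FC -0.56 ± 0.059 SE, limma FDR = 1.22e-05). Kat5 (TIP60, log2FC -0.30) and Kat8 (MOF, the H4K16 acetyltransferase, 0.42) passed the FDR and stayed within 0.5. Of 7 acetyltransferases that lack the prefix, 5 were lower, 1 higher and 1 was not called (all 11233 genes: 28.6% higher, 27.6% lower). Ep300 (-1.17) and Crebbp (-1.12), which acetylate H3K27 at enhancers, were both lower, and so were the coactivators Ncoa1 (-1.32) and Ncoa3 (-1.20). Ncoa2 was lower as well (-0.84). Hat1, which acetylates newly made histone H4 before it enters chromatin, was the member of that list that rose (0.82).

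Setd genes were ordered by the residue they methylate. The H3K4 enzymes did not pass the test: Setd1a and Setd1b, catalytic subunits of COMPASS complexes, had log2FC of 0.031 and 0.16, and Setd7, which monomethylates H3K4 and many other proteins, had 0.18. Setd2, which makes H3K36 trimethylation behind elongating RNA polymerase, was at 7.20, 7.13 and 7.26 with CpG and 8.21, 8.16 and 8.21 without. All 3 CpG-stimulated samples were close to 1 log2 unit below the others (log2FC -0.995 ± 0.059 SE, limma FDR = 2.27e-07). The H3K9 methyltransferases Setdb1 and Setdb2 went apart. Setdb1, which silences endogenous retroviruses, was at 6.49, 6.08 and 6.40 with CpG and 5.75, 5.61 and 5.83 without (log2FC 0.60 ± 0.11 SE, limma FDR = 5.38e-04), while Setdb2 was at 4.25, 4.23 and 4.23 with CpG and 4.46, 4.60 and 4.52 without and did not reach 0.5 (log2FC -0.29 ± 0.082 SE, limma FDR = 0.00872). In neither gene did the groups overlap. Setd8, now named Kmt5a, which monomethylates H4K20 and is tied to the cell cycle, was higher (log2FC 0.75 ± 0.063 SE, limma FDR = 2.36e-06). Setd6, which methylates the NF-κB subunit RelA, was at 4.91, 4.85 and 4.86 with CpG and 3.72, 4.01 and 3.85 without, with the groups apart by more than the range of either (log2FC 1.01 ± 0.095 SE, limma FDR = 5.29e-06). Setd4 was higher (log2FC 0.79 ± 0.18 SE, limma FDR = 0.00274) and Setd5 was lower (log2FC -0.57 ± 0.063 SE, limma FDR = 1.64e-05). Setd3, a methyltransferase of actin, had a log2FC of 0.10 and was not called. Of 12 COMPASS genes, 3 were higher, 5 were lower and 4 were not called (all 11233 genes: 28.6% higher, 27.6% lower). Wdr5, a core subunit, was at log2FC 1.11, and Kmt2c, listed as Mll3, was at -1.34. Of 17 other histone methyltransferases, 4 were higher and 5 lower, near the shares of all genes (28.6% higher and 27.6% lower). Smyd2 (2.10) and Suv39h2 (1.66) changed most.

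Ezh1 and Ezh2 are alternative catalytic subunits of PRC2, which methylates H3K27; Ezh2 is typical of dividing cells and is needed in germinal center B cells, and Ezh1 is typical of resting cells. Ezh2 was at 5.77, 5.72 and 5.75 with CpG and 5.18, 5.005 and 5.18 without, with no overlap between groups (log2FC 0.63 ± 0.074 SE, limma FDR = 2.90e-05). Ezh1 was at 6.33, 6.34 and 6.38 with CpG and 6.66, 6.61 and 6.68 without; the groups also did not overlap, and the log2FC stayed within 0.5 (log2FC -0.30 ± 0.058 SE, limma FDR = 0.001). Among 9 partners of PRC2, 2 were higher, 3 lower and 4 not called (all 11233 genes: 28.6% higher, 27.6% lower). The core subunits Eed (0.35) and Suz12 (0.28) had log2FC below 0.5, though each passed the FDR. Aebp2, an accessory subunit, rose most (log2FC 1.59 ± 0.070 SE, limma FDR = 4.85e-08), and Phf1, an accessory subunit of another form of the complex, fell most (log2FC -1.51 ± 0.14 SE, limma FDR = 4.93e-06).

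The HDAC genes were ordered by class. In class I, the nuclear deacetylases of the Sin3, NuRD, CoREST and NCoR complexes, Hdac2 was at 7.20, 7.10 and 7.12 with CpG and 5.96, 5.84 and 5.96 without and was the only HDAC called higher (log2FC 1.22 ± 0.065 SE, limma FDR = 1.17e-07). Its close paralog Hdac1 was at 6.99, 7.24 and 7.13 with CpG and 6.66, 6.72 and 6.64 without; the groups did not overlap, and the log2FC stayed below 0.5 (log2FC 0.45 ± 0.074 SE, limma FDR = 3.08e-04), although it was 0.51 without CpG-stimulated sample 1. Hdac3, the enzyme of NCoR complexes, was at 6.01, 5.87 and 6.07 with CpG and 5.57, 5.67 and 5.67 without (log2FC 0.34 ± 0.075 SE, limma FDR = 0.002). Hdac8, the X-linked deacetylase of cohesin, was at 2.13, 2.14 and 2.10 with CpG and 3.19, 3.09 and 3.23 without and was lower in all samples (log2FC -1.04 ± 0.12 SE, limma FDR = 2.71e-05). Class IIa HDACs shuttle between nucleus and cytoplasm and bind MEF2 factors. Hdac5 of this class was at 4.04, 4.48 and 4.29 with CpG and 6.65, 6.80 and 6.82 without, the strongest fall of all members (log2FC -2.49 ± 0.11 SE, limma FDR = 4.76e-08). Hdac9 was lower (log2FC -0.62 ± 0.096 SE, limma FDR = 1.86e-04), whereas Hdac7 (0.22) and Hdac4 (-0.072) were not called. The promoter of Hdac5, on the minus strand at chr11:102230123-102230422, has its E-box (in capitals) close to the start of the gene.
Hdac5: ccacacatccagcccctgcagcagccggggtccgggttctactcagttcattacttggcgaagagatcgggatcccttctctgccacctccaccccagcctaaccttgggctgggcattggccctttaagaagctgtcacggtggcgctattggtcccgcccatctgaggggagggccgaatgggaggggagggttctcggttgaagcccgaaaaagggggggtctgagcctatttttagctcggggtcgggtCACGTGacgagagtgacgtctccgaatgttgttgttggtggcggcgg
Both class IIb genes fell. Hdac10, a deacetylase of polyamines, was at 2.74, 3.07 and 2.99 with CpG and 4.36, 4.38 and 4.47 without (log2FC -1.47 ± 0.11 SE, limma FDR = 1.24e-06), and Hdac6, the X-linked deacetylase of tubulin, fell little (log2FC -0.55, limma FDR = 0.00253) and missed the threshold without CpG-stimulated sample 1 (-0.46). Hdac11, the single class IV enzyme, was at -2.48, -1.94 and -2.10 with CpG and 0.24, -0.018 and 0.37 without. It passed the filter only through the unstimulated samples. With CpG its values were near the level of 3 reads (-2.34), and its log2FC (-2.37) shrank to -0.81 on the log2(CPM + 1) scale. With the filter set in all 6 samples Hdac11 was not tested, and 25 members in place of 26 were lower. Of 18 genes of HDAC corepressor complexes, 3 were higher, 6 lower and 9 not called (all 11233 genes: 28.6% higher, 27.6% lower). Mta3, a NuRD subunit known from germinal center B cells, fell most (log2FC -1.89 ± 0.13 SE, limma FDR = 4.62e-07), and Rcor2 rose most (log2FC 1.73 ± 0.22 SE, limma FDR = 5.54e-05) from a low level (-0.13 on average without CpG).

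Sirtuins were ordered by compartment, and no Sirt gene was higher (all 11233 genes: 28.6% higher, 27.6% lower). Of the nuclear enzymes, Sirt1 was at 5.52, 5.62 and 5.58 with CpG and 6.31, 6.35 and 6.41 without, each CpG-stimulated sample below each unstimulated one (log2FC -0.78 ± 0.065 SE, limma FDR = 2.26e-06). Sirt6 (log2FC -0.17) and Sirt7 (-0.038), which act on chromatin of genes and of ribosomal DNA, were not called, and their groups overlapped. Sirt2, which is mostly cytoplasmic, was at 3.90, 4.06 and 4.07 with CpG and 5.24, 5.15 and 5.05 without (log2FC -1.14 ± 0.090 SE, limma FDR = 1.53e-06). Of the 3 mitochondrial genes 2 fell. Sirt4 was at 0.28, 0.85 and 0.62 with CpG and 2.40, 2.32 and 2.29 without, the strongest fall of the family (log2FC -1.75 ± 0.20 SE, limma FDR = 2.25e-05), and Sirt3, the main mitochondrial deacetylase, was lower with more spread (log2FC -0.71 ± 0.20 SE, limma FDR = 0.00754). Sirt5 was at 0.92, -0.34 and -0.17 with CpG and 0.75, 0.70 and 0.47 without; CpG-stimulated sample 1 lay above all unstimulated samples and the other CpG-stimulated samples below them, so no change was called (FDR = 0.212), and the log2FC (-0.51) was -0.90 and called without CpG-stimulated sample 1, and -0.27 and not called without CpG-stimulated sample 2. The promoter of Sirt1, on the minus strand at chr10:63338986-63339285, holds a pair of E-boxes (in capitals) and 79.0% of G and C.
Sirt1: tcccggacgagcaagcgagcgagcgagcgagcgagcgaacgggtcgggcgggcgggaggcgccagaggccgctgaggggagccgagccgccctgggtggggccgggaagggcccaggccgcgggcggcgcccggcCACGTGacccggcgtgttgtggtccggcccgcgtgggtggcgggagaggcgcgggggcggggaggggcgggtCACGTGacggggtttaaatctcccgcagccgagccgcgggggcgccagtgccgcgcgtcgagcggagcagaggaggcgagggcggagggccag

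**Figure D3:**
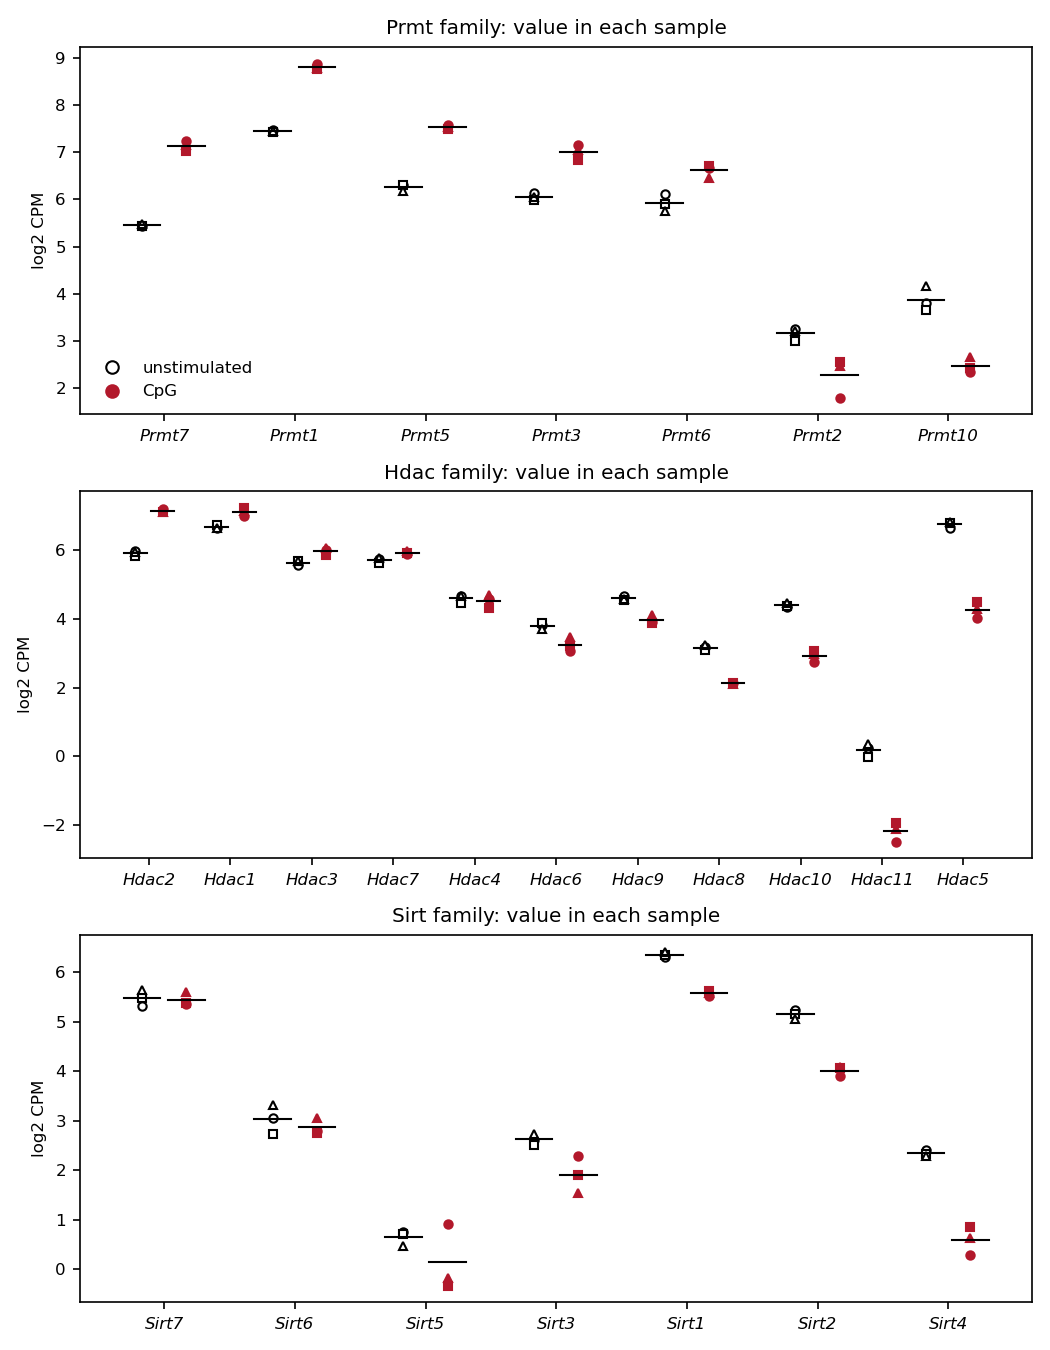
Log2 CPM of each Prmt, Hdac and Sirt member in each of the 6 samples; open symbols are unstimulated and red symbols CpG-stimulated samples, circles, squares and triangles are samples 1, 2 and 3, and bars are means of 3. Groups overlap in Hdac4, Sirt5, Sirt6 and Sirt7, and levels of different genes are not corrected for length.

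Lysine demethylases were ordered by substrate, and 7 of 15 fell (all 11233 genes: 27.6% lower). Among those that act on H3K4, Kdm5a was at 7.71, 7.68 and 7.71 with CpG and 8.75, 8.70 and 8.66 without (log2FC -1.004 ± 0.056 SE, limma FDR = 1.48e-07) and Kdm5b at 6.12, 5.79 and 5.68 with CpG and 7.29, 7.16 and 7.10 without (log2FC -1.32 ± 0.11 SE, limma FDR = 1.88e-06); neither gene had overlapping groups. Kdm1b (LSD2), a flavin-dependent demethylase, rose (log2FC 0.76 ± 0.092 SE, limma FDR = 3.33e-05), while its relative Kdm1a (LSD1, log2FC 0.060) was not called. By the FDR alone, 4123 of all 11233 genes were lower. All 5 tested H3K9 demethylases had negative log2FC that passed the FDR, and 3 of them were called. These were Kdm3a (log2FC -0.92 ± 0.067 SE, limma FDR = 8.72e-07), Kdm3b (log2FC -0.92 ± 0.061 SE, limma FDR = 4.73e-07) and Kdm4c (log2FC -0.81 ± 0.081 SE, limma FDR = 7.90e-06), while Kdm4a (-0.45) and Kdm4b (-0.42) stayed within 0.5. Kdm4d did not pass the filter and ranged from -2.36 to -0.26 over the 6 samples.

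The H3K36 demethylases Kdm2a and Kdm2b bind unmethylated CpG islands, and Kdm2b brings a form of Polycomb complex PRC1 to them. Kdm2a was at 6.0, 5.92 and 6.09 with CpG and 7.49, 7.43 and 7.63 without (log2FC -1.51 ± 0.073 SE, limma FDR = 7.23e-08), and Kdm2b was at 8.97, 8.86 and 8.88 with CpG and 7.96, 7.71 and 7.68 without (log2FC 1.12 ± 0.080 SE, limma FDR = 7.22e-07). The genes moved in opposite directions, and in neither gene did the groups overlap. Kdm8, also assigned to H3K36, had a log2FC of -0.36 and was not called. The H3K27 demethylases split too. Kdm6b (JMJD3), which is known to be induced by inflammatory signals in macrophages, was at 10.58, 10.33 and 10.63 with CpG and 10.14, 9.94 and 9.87 without and was called by a small margin (log2FC 0.53 ± 0.098 SE, limma FDR = 6.65e-04). Without CpG-stimulated sample 1, CpG-stimulated sample 3 or unstimulated sample 3, its log2FC was 0.498, 0.47 and 0.47 and was no longer called. Kdm6a (UTX), the X-linked paralog, was at 6.19, 5.92 and 5.53 with CpG and 7.37, 7.08 and 6.69 without (log2FC -1.17 ± 0.18 SE, limma FDR = 2.31e-04). In both groups its values were lowest in the male sample. The X-linked gene Kdm5c, which with Kdm6a is known to escape X inactivation, was also lowest in the male sample of each group, at 7.93, 7.55 and 7.38 with CpG and 8.34, 7.96 and 7.71 without, with overlapping groups (log2FC -0.39, limma FDR = 0.0553). Its log2FC was -0.54 and was called without CpG-stimulated sample 1, and was -0.53 and called without unstimulated sample 3, but was -0.22 and not called without unstimulated sample 1. Fitted with the replicate number as a block, the FDR of Kdm5c was 1.31e-05 at the same log2FC. With 1 male sample per group a difference by sex could not be tested. Of 7 other JmjC proteins, 2 were higher and 4 lower (all 11233 genes: 28.6% higher, 27.6% lower). Kdm7a, listed as Jhdm1d, which removes H3K9 and H3K27 methylation, fell most (log2FC -2.61 ± 0.15 SE, limma FDR = 1.66e-07), and Riox1, listed as 2410016O06Rik, a nucleolar hydroxylase, rose most (log2FC 1.46 ± 0.11 SE, limma FDR = 1.21e-06).

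TET enzymes went in opposite directions. Tet2, which is often mutated in blood cancers, was at 8.05, 7.92 and 7.95 with CpG and 7.25, 7.10 and 7.22 without (log2FC 0.78 ± 0.065 SE, limma FDR = 2.21e-06). Tet3 was at 5.96, 5.96 and 6.07 with CpG and 7.29, 7.03 and 7.31 without; all CpG-stimulated samples lay below all unstimulated ones (log2FC -1.21 ± 0.084 SE, limma FDR = 6.03e-07). Tet1 was just below the filter, with values over -0.76 in only 2 samples: it was at -3.27, -4.54 and -3.66 with CpG, below the level of 3 reads, and at -0.54, -0.58 and -1.05 without. Just inside the filter were Hdac11 and Sirt5. Among the 4 tested genes that set and maintain DNA methylation, 3 were higher and 1 lower (all 11233 genes: 28.6% higher, 27.6% lower). The de novo methyltransferases Dnmt3a (0.83) and Dnmt3b (1.36) rose, and so did Uhrf1 (0.74), which guides Dnmt1 to replicated DNA. The maintenance enzyme Dnmt1 was lower (-0.63), and Tdg did not pass the filter.

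Ratios within pairs of paralogs were then taken in each sample. The 10 pairs were chosen after the values of the genes were seen. Their symbols differ only in a final letter, with exactly 2 tested genes, and the Ezh, Tet and Setdb genes were added. Left out were Kdm4a, Kdm4b and Kdm4c (log2FC -0.45, -0.42 and -0.81) and Kdm5a, Kdm5b and Kdm5c (-1.004, -1.32 and -0.39). All of these were negative, but Kdm4a, Kdm4b and Kdm5c were not called. Other paralogs that differ by number, such as Hdac1 and Hdac2, were left out too. In 4 pairs the genes moved in opposite directions and both were called: Kat2a and Kat2b, Kdm2a and Kdm2b, Kdm6a and Kdm6b, and Tet2 and Tet3. By the FDR alone Ezh1 and Ezh2, and Setdb1 and Setdb2, were opposed as well. In 2 pairs, Kat6a and Kat6b, and Kdm3a and Kdm3b, both genes fell. The log2 ratio of Kat2a to Kat2b was 4.96, 3.88 and 4.78 with CpG and 1.61, 1.34 and 1.22 without; it rose by 3.15 and was lowest in sample 2 of the CpG-stimulated group. That of Kdm2a to Kdm2b was -2.97, -2.94 and -2.79 with CpG and -0.47, -0.28 and -0.048 without, a change of -2.63. For Tet2 and Tet3, which were near parity in reads without CpG, it was 2.09, 1.96 and 1.89 with CpG and -0.039, 0.077 and -0.093 without, a change of 1.99. The ratio of Kdm6a to Kdm6b changed by -1.70, and that of Ezh1 to Ezh2 by -0.92. Ratios did not overlap between groups in 8 of 10 pairs, the exceptions being Kdm3a and Kdm3b (-0.0060) and Setd1a and Setd1b (-0.13). No share of opposed or non-overlapping pairs was taken over other gene pairs. Of all 11233 single genes, 77.7% had groups that did not overlap, 28.6% were called higher and 27.6% lower. An exact permutation test of 3 samples against 3 cannot give a p below 0.1, so none was run on the ratios.

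**Figure D4:**
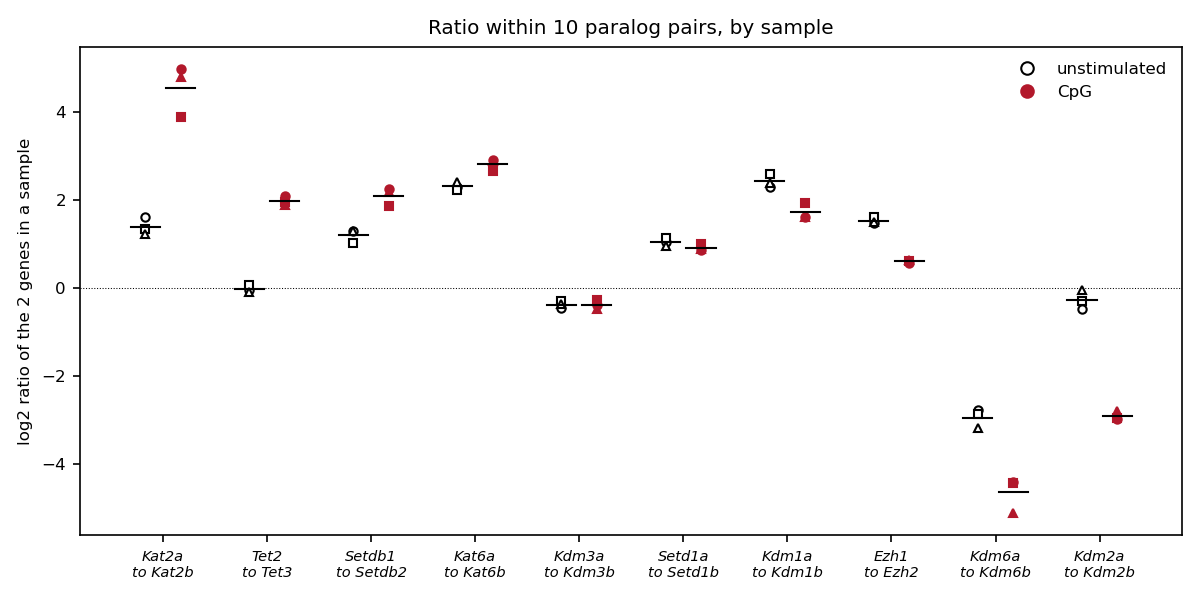
Log2 ratio of the deposited values of the 2 genes of each paralog pair in each sample; open symbols are unstimulated and red symbols CpG-stimulated samples, circles, squares and triangles are samples 1, 2 and 3, and bars are means of 3. Lengths of the genes are not corrected for, so only the difference between groups can be read, which runs from 3.15 (Kat2a to Kat2b) to -2.63 (Kdm2a to Kdm2b).

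Levels of different genes were compared as CPM per kb of exons (GENCODE M21). Summed over the 7 members, the Prmt family was at 248 ± 10.6 CPM per kb (SD, n = 3) with CpG and 109 ± 3.34 without, a ratio of 2.28. The Sirt family was at 24.7 ± 1.19 and 37.5 ± 1.48, a ratio of 0.659, and the Kat family at 88.5 ± 5.84 and 109 ± 1.51, a ratio of 0.815. The sum of the Hdac family was higher with CpG, at 106 ± 2.80 and 89.6 ± 1.21, although 6 of its genes fell. Summed levels of the Prmt, Sirt, Kat and Hdac families did not overlap between groups. Those of the Kdm family (402 ± 25.8 and 387 ± 25.4), the Setd family (153 ± 6.01 and 145 ± 3.02), the Tet family (18.7 ± 0.66 and 17.6 ± 1.40) and the Ezh family (19.0 ± 0.25 and 18.7 ± 0.69) did.

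The makeup of the families changed with these levels. Hdac2 made up 29.7 ± 1.88% of the summed Hdac level with CpG and 15.1 ± 0.78% without, and Hdac5 made up 2.08 ± 0.28% and 13.8 ± 0.68%. Hdac1 was the most abundant HDAC per kb in both groups (38.0 ± 2.50% and 33.1 ± 1.10%). Kat2a went from 10.9 ± 1.30% of the Kat sum without CpG to 26.9 ± 3.81% with it, and Kat6a from 28.7 ± 0.94% to 16.8 ± 0.50%. Ezh2 made up 42.2 ± 0.63% of the Ezh sum with CpG and 27.8 ± 0.89% without, so Ezh1 was the more abundant per kb in both. Tet2 made up 79.5 ± 1.14% and 49.4 ± 1.5% of the sum of Tet2 and Tet3. Kdm6b was the most abundant of all 62 members per kb in both groups, and alone made up 52.4 ± 2.72% of the Kdm sum with CpG and 37.7 ± 1.25% without. Prmt1 was second in both groups, with 52.6 ± 0.09% and 47.1 ± 0.98% of the Prmt sum. Prmt5 was at rank 3 with CpG and at rank 13 without.

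**Figure D5:**
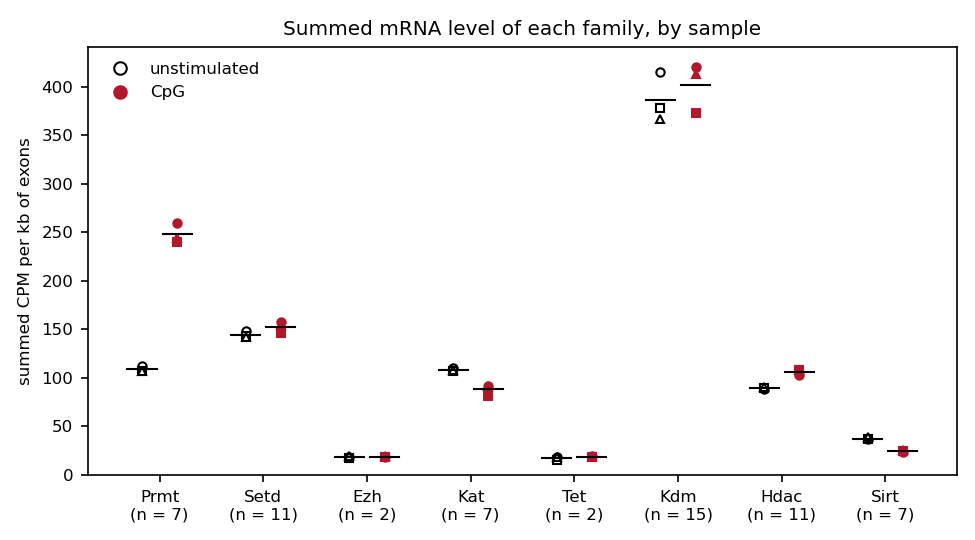
Summed level of the tested members of each family in CPM per kb of exons, in each of the 6 samples; open symbols are unstimulated and red symbols CpG-stimulated samples, circles, squares and triangles are samples 1, 2 and 3, and bars are means of 3. The Prmt sum is 2.28 times as high with CpG, and the Sirt sum 0.659 times.

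Members that fell had longer genes than those that rose. The median span on the genome was 68908 bases for the 26 lower members, 24862 for the 16 higher and 32528 for the 20 not called, and 22695 for all genes with a length. Across the 62 members, log2FC and span had a Spearman rho of -0.305, and across 10584 genes of the same 6 libraries it was -0.157. The part of gene length in these changes was not tested. In mm10, Prmt7 spans chr8:106210936-106252794 on the plus strand and Hdac5 spans chr11:102194432-102230166 on the minus strand, and 4 members (Hdac6, Hdac8, Kdm5c and Kdm6a) are on the X chromosome. Exons of some members overlap another gene on the opposite strand, and as the strand setting of the counting is not stated, reads of the partner may be included. Such overlap covered 24.6% of the exonic bases of Kdm3b (Gm26538), 23.4% of Prmt6 (C130013H08Rik), 22.4% of Hdac4 (Gm26720), 15.4% of Hdac11 (Gm44002) and 12.1% of Kat5 (Rnaseh2c). In Setd1a, 51.8% of exonic bases are shared on the same strand with Gm49388, so its value is uncertain. In the other members, including Kdm1b (9.20%, Dek), it was under 10%.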

How the data were processed

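RNA-seq values of 6 samples were used. Per the labels and the study's methods, the authors trimmed reads with Trim Galore 0.6.5, aligned them to mm10 with STAR 2.6.1a, counted them per gene with featureCounts (Subread 2.0.1), then quantile normalized the counts and ran voom. In each file the deposited unit is log2 CPM; depth before normalization is not in the values, and counting error is known only from the common level of 17.8 M reads (10 reads at -0.76, 3 reads at -2.34, none at -5.15). The lowest value (-7.93) lies below the level without reads, and 4426 genes have such values; the reason was not tested. The strand setting and annotation of the counting are not given in the sources used here.

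Genes over -0.76 in at least 3 samples were fitted with limma 3.58.1 in R 4.3.3 (lmFit, eBayes with trend; Benjamini-Hochberg over all 11233), and called at FDR under 0.05 with log2FC beyond 0.5. The fit was tested on simulated data. Groups came from the treatment labels. The members, subgroups and gene lists were chosen with earlier results of these data known. Members were named by a rule: values of every sample for those with log2FC beyond 1, for the largest rise and fall of each family and for selected paralogs, and the largest changes of each other list. Deviations of same-numbered samples correlated (0.435, 0.224 and 0.300; others from -0.281 to 0.0279), so the replicate number was also fitted as a block, along with other filters, scales, centring, call rules and each sample left out. Exon lengths and overlaps are from GENCODE M21 and promoters from RefSeq GRCm38.p6. Older symbols were matched to current ones by a fixed list. Of the promoter windows wanted, 52 of 62 were found. Figures were drawn with matplotlib 3.10.9.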

Additional observations from a re-analysis of the deposited data

Results flagged for a closer look

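Effects of CpG in the male pair of samples (number 3) and in the female pairs (1 and 2) pointed in opposite directions in 3 members, none of which was called. Hdac4 changed by 0.031 (log2FC within the pair) in the male pair and by -0.11 and -0.14 in the female pairs. Kdm1a changed by -0.013 in the male pair and by 0.13 and 0.065 in the female pairs. Setd1a changed by 0.14 in the male pair and by -0.010 and -0.037 in the female pairs. The difference was not tested in any of them, as there is 1 male pair, and the sex-linked genes of the samples numbered 2 lay between those of the other numbers.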

How the results depend on the processing

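Of 865 values of members under the alternatives, 853 kept their direction and their side of the threshold. With log2FC beyond 1, 1778 genes were higher and 1723 lower, and 7 and 15 of the members, with Hdac11 among the 15. By the FDR alone, 20 members were higher and 31 lower, against 4227 higher and 4123 lower of all 11233 genes. With the filter in all 6 samples or over 1 in at least 3, either of which leaves out Hdac11, the Hdac median was -0.31. Without a filter, which adds Tet1 to its family and Kdm4d to its own, the median log2FC was -1.21 for Tet and -0.51 for Kdm. With each sample left out in turn, the medians ranged from -0.54 to -0.40 for Kdm and from 0.11 to 0.22 for Setd. Hdac4 turned to 0.030 without CpG replicate 2, and Sirt7 to 0.0047 without CpG replicate 1 and to 0.041 without unstimulated replicate 3; neither was called in any fit, and with each sample left out they ranged from -0.16 to 0.030 and from -0.12 to 0.041. Calls of Kdm6b and Hdac6 were lost, and Hdac1, Kdm5c and Sirt5 were called, without 1 sample as given above; Kat8 was called (0.51) without both samples numbered 2, an alternative chosen after seeing the data. With the replicate number as a block, the same 42 members were called (16 higher, 26 lower), and the block changed no call of a member; over all genes 6330 were called against 6304, with 6275 shared. The cause of these changes was not tested. Depth limits Hdac11 and Sirt5, whose values lie close to the filter, and Tet1, which lies below it. It also limits Sirt4, which was low with CpG (0.28 to 0.85) and whose log2FC ranged from -1.895 to -1.27 over the alternatives.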
